A study of Mus musculus with 6 samples.

Results

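*Mgp* and *Prelp* encode matrix proteins, and both had lower RNA levels in infant mice, on postnatal day 6 (P6), than in adults, on postnatal day 56 (P56). They are the 2 genes of the deposited table whose symbols are *Mgp* (gene ID 17313) and *Prelp* (gene ID 116847), out of 312 listed genes. Both were picked because earlier results of these data had shown them lower at P6 while most of the listed matrix genes were higher. The difference between the ages is therefore described here without a test. The spread between replicates of one age was not used for that choice.

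The table holds RNA sequencing of 6 libraries, 3 from mice at P6 and 3 from mice at P56. According to the labels, the RNA at both ages came from adipose tissue macrophages, phagocytes resident in fat. The paper instead describes inguinal adipose tissue (iAT) depots of wild-type C57BL/6 mice, an inbred laboratory strain, with no treatment named for either age. Nothing in the sources used here says whether a library was made from 1 animal or from a pool, so the spread between libraries may be partly technical. None of the 16 macrophage, 9 adipocyte, 9 fibroblast and preadipocyte or 7 endothelial markers looked for is among the 312 genes. Of other cell types, 6 of 10 smooth muscle and pericyte markers, 2 of 8 skeletal muscle markers and 1 of 10 chondrocyte markers are listed. Smooth and skeletal muscle genes were thus measured at both ages, and their levels are given below. The 312 genes are a selection, and which description holds was not tested. In such bulk libraries, fewer cells of a type and less RNA per cell cannot be told apart.

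Matrix Gla protein, the product of *Mgp*, is a small secreted protein whose glutamate residues are carboxylated in a vitamin K-dependent step. It is known as an inhibitor of calcification in arteries and cartilage and as a binding partner of bone morphogenetic proteins (BMPs). *Prelp* encodes proline and arginine rich end leucine rich repeat protein, a member of the small leucine-rich proteoglycan family. It binds collagen through its leucine-rich repeats and the heparan sulfate chains of perlecan through its basic end, and is thought to anchor basement membranes to the connective tissue beneath. In fat, such matrix surrounds the adipocytes and the vessels.

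The genes differ in architecture. In GENCODE's mouse annotation of GRCm38, *Mgp* lies on chromosome 6 and its coding transcript has 4 exons and 617 bases, 312 of them coding. *Prelp* lies on chromosome 1, and its coding transcript has 3 exons and 3615 bases, of which 1134 are coding and 68.6% are untranslated. Which assembly the reads were aligned to is not stated. Of the 2 genes, 1 was matched in the promoter table from RefSeq (GRCm38.p6), namely *Prelp*. The 250 bases before the *Prelp* start, chr1:133921402-133921651 on the minus strand, are shown because only *Prelp* was matched. Capitals mark the hexamer CCCTCC, which was chosen for display after the sequence was read.

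Prelp promoter: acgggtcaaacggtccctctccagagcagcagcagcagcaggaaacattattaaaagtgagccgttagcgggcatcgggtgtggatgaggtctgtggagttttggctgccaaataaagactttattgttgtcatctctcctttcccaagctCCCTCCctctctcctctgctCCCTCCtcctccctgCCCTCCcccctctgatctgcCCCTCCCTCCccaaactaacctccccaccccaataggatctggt

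This stretch has a GC content of 55.6%. CCCTCC occurs 5 times on the strand shown, starting 99, 79, 64, 44 and 40 bases before the start, the last pair overlapping, and does not occur on the other strand. At least 1 copy on either strand is present in 35.2% of the 32851 promoter windows of the same length in the table, and at least 5 copies in 0.6%. Neither TATAAA, found in 12.4% of the windows, nor the GC box GGGCGG, found in 32.7%, nor CANNTG, found in 66.2%, occurs on either strand. CCAAT occurs 1 time, as in 33.8% of windows with any copy. These are descriptions of letters, and no binding was measured.

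Levels are given in TPM, a length-corrected measure that sets each gene against the total of its library and allows genes to be compared. *Prelp* stood at 206.89, 199.21 and 186.57 TPM in P6 replicates 1, 2 and 3, and at 402.12, 414.42 and 362.41 TPM in P56 replicates 1, 2 and 3. Every P6 value lay below every P56 value, with a wide gap between the ages and close agreement within them. The mean was 197.6 ± 10.3 TPM at P6 and 393.0 ± 27.2 TPM at P56 (SD, n = 3 each), a 1.99-fold higher level at P56 as a ratio of geometric means. Among the 312 genes, *Prelp* ranked between 22nd and 25th by TPM at P6 and between 8th and 10th at P56. Its transcripts made up between 0.0187% and 0.0207% of all transcripts at P6 and between 0.0362% and 0.0414% at P56.

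*Mgp* stood at 124.4, 62.75 and 93.07 TPM in P6 replicates 1, 2 and 3, and at 183.83, 173.19 and 168.12 TPM in P56 replicates 1, 2 and 3. Here too the ages did not overlap, but the P6 libraries were far apart, with replicate 2 lowest and replicate 1 nearest to the adult values. The mean was 93.4 ± 30.8 TPM at P6 and 175.0 ± 8.02 TPM at P56 (SD, n = 3 each), a 1.95-fold higher level at P56. *Mgp* ranked between 43rd and 64th of the 312 genes at P6 and between 28th and 31st at P56. All P6 values lay below all P56 values in 38.3% of the 300 genes that reached 1 TPM on average, all above in 27.0%, and either in 65.3%. Nothing is read from this separation for genes chosen by this contrast.

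**Figure D1:**
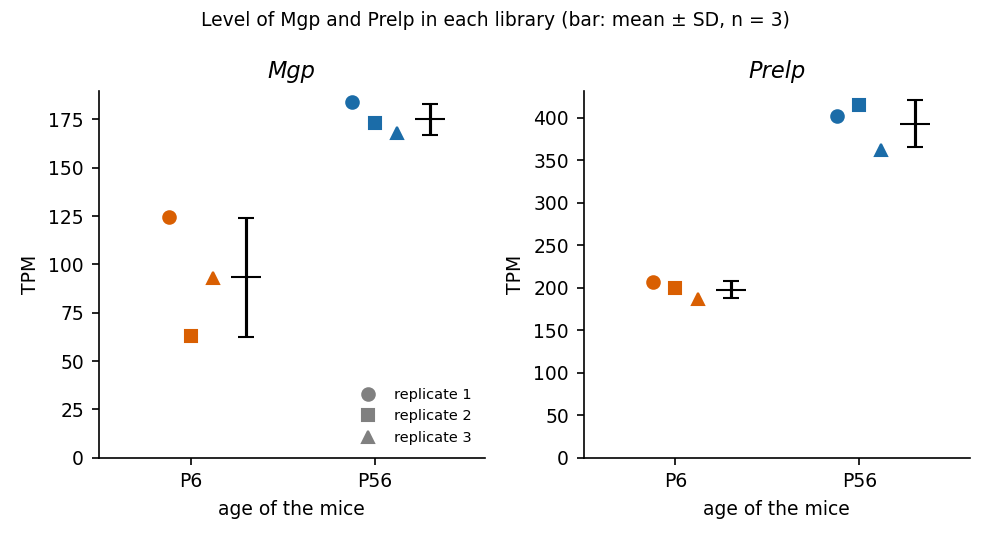
TPM of *Mgp* (left) and *Prelp* (right) in each library by age, with 1 symbol per replicate and bars for the mean ± SD (n = 3). P6 values lie below P56 values for both genes, and the *Mgp* values at P6 run from 62.75 to 124.4 TPM while those of *Prelp* stay between 186.57 and 206.89 TPM.

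The raw counts show how much more sequencing evidence stands behind *Prelp*. *Mgp* was covered by 540, 266 and 428 reads at P6 and 599, 551 and 504 reads at P56. *Prelp* was covered by 6067, 5703 and 5805 reads at P6 and 8883, 8768 and 7294 reads at P56. *Prelp* thus had between 11.2 and 21.4 times the reads of *Mgp* in each library, although its TPM was only 1.66 to 3.18 times higher. The ratio of count to FPKM, which grows with the length that reads can come from, was 6.74 times larger for *Prelp*, against a ratio of annotated transcript lengths of 5.86. By this measure *Mgp* was the shortest of 304 genes with more than 10 counts in every library.

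The libraries differed in depth, so raw counts cannot be compared between the ages directly. Over the listed genes the totals ran from 782852 to 816309 counts at P6 and from 497044 to 671747 counts at P56. The relative depth recovered from count and FPKM was 1.09 to 1.16 at P6 and 0.795 to 0.937 at P56, as multiples of the mean. In raw counts the *Mgp* values of the ages overlapped, with 540 reads in P6 replicate 1 against 504 in P56 replicate 3. Divided by relative depth, *Mgp* had 479, 244 and 368 counts at P6 and 639, 620 and 634 counts at P56, and the ages no longer overlapped. On this scale all P6 values lay below all P56 values in 33.9% of 310 genes, above in 33.5% and either in 67.4%. *Prelp* had 5386, 5223 and 4997 depth-scaled counts at P6 and 9481, 9871 and 9180 at P56.

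The fitted log2 difference (P6 minus P56) at the recovered depth was −0.79 for *Mgp* (standard error 0.19) and −0.87 for *Prelp* (standard error 0.08), from edgeR with n = 3 per age. On the log2 TPM scale the differences were −0.96 for *Mgp* (standard error 0.29) and −0.99 for *Prelp* (standard error 0.07). The median difference of all tested genes was also lower on the TPM scale, −0.03 at the recovered depth and −0.14 with limma on log2(TPM + 1). Relative to that median the members' differences were of like size on both scales. With equal library sizes, which do not remove the difference in depth, the median of all genes was 0.34, and the members' differences were −0.42 for *Mgp* and −0.51 for *Prelp*. In that fit 47.7% of genes were called higher, 11.0% lower and 58.7% either way.

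At the recovered depth, 33.9% of the 310 tested genes were called lower and 30.3% higher at P6, 64.2% in all, by edgeR's quasi-likelihood test at an adjusted p under 0.05. By size of the fitted fall, *Prelp* came 29th and *Mgp* 35th of the 160 genes with a negative difference. Among the 105 genes called lower, 28 fell more than *Prelp* and 34 more than *Mgp*. Neither gene stands at the end of the list.

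Among the adult libraries, replicate 3 differed most, its median gene lying 0.28 below the mean of the other P56 libraries on the log2 TPM scale. In this library *Mgp* deviated by −0.09 and *Prelp* by −0.17, both less than the median gene. Without P56 replicate 3, P56 was 1.99-fold higher than P6 for *Mgp* and 2.07-fold higher for *Prelp*, in TPM. The difference therefore was as large without that library.

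The spread between the P6 libraries was the clearest contrast between *Mgp* and *Prelp*. The SD of log2 TPM between the P6 replicates was 0.50 for *Mgp*, the widest of the same 300 genes. The next widest was *Rspo3*, which encodes a secreted activator of Wnt signaling, with 0.48, and the median gene had 0.10. *Prelp*, with 0.08, ranked 194th. *Rspo3* is a low gene, with 5.69, 3.28 and 3.12 TPM at P6. Among the 80 genes that averaged 50 TPM or more, the next widest after *Mgp* was *Tagln* with 0.31. On depth-scaled counts *Mgp* was again widest, with 0.49 against 0.46 for *Rspo3*.

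At P56 the order turned over. The SD of log2 TPM was 0.07 for *Mgp*, which ranked 280th of the 300 genes, and 0.10 for *Prelp*, which ranked 254th, against a median of 0.19. The highest depth-scaled count of *Mgp* was 1.97 times the lowest at P6 and 1.03 times at P56. The 95% exact Poisson intervals, which cover counting error only, did not overlap between the P6 libraries and were 495.4 to 587.5 reads for P6 replicate 1, 235.0 to 300.0 for P6 replicate 2 and 388.4 to 470.5 for P6 replicate 3. Relative to depth, the chi-square per degree of freedom of *Mgp* was 42.2 at P6, 10th of 310 genes, and 0.138 at P56, 304th of 310.

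**Figure D2:**
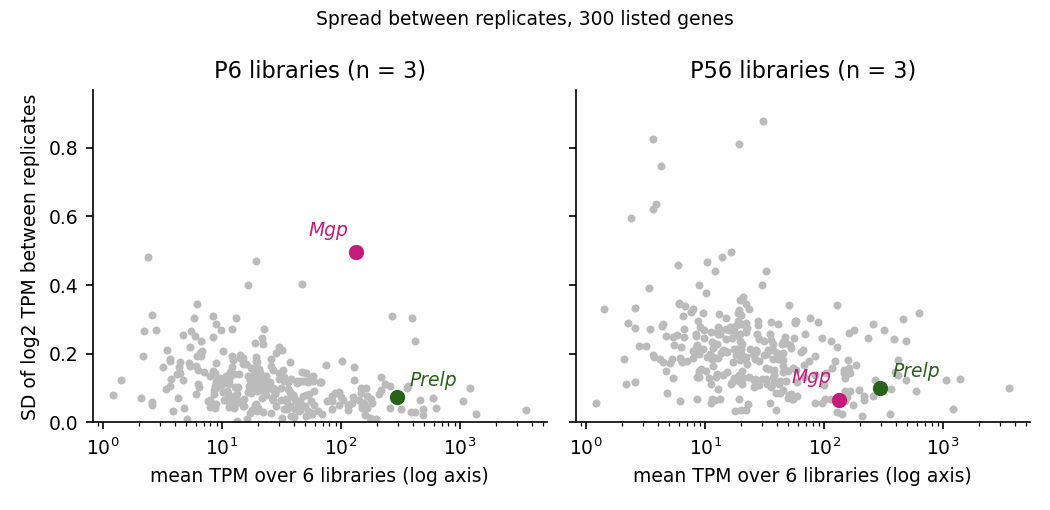
SD of log2 TPM between the 3 replicates of each age (vertical axis) against mean TPM over the 6 libraries (horizontal log axis) for 300 genes, with P6 left and P56 right. *Mgp* has the widest spread at P6, 0.50, and one of the narrower ones at P56, 0.07, while *Prelp* stays at 0.08 and 0.10.

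Both ends of the P6 range contributed. *Mgp* in P6 replicate 2 was 0.78 lower on the log2 TPM scale than the mean of the other P6 libraries, the lowest deviation of the 300 genes there. In P6 replicate 1 it was 0.70 higher than the other P6 libraries, exceeded only by *Rspo3* with 0.83. Without P6 replicate 2 the adult level of *Mgp* was 1.63-fold above the P6 level, and without P6 replicate 1 it was 2.29-fold above. For *Prelp* leaving out any 1 library gave between 1.93-fold and 2.07-fold.

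Of the 6 measured genes of the smooth muscle and pericyte list, 4 had the same order as *Mgp* among the P6 libraries, highest in replicate 1 and lowest in replicate 2. That order was seen in 11.0% of the 300 genes (33 genes). The 4 are *Cnn1*, *Tagln*, *Acta2* and *Mcam*, and they were looked at after their values were seen. *Cnn1*, which encodes the contractile regulator calponin, had 35.14, 20.65 and 23.35 TPM in P6 replicates 1, 2 and 3. *Tagln*, which encodes the actin-binding protein transgelin, had 369.16, 246.02 and 266.06 TPM. *Acta2*, which encodes smooth muscle actin, had 608.19, 405.27 and 452.59 TPM. *Lmod1*, which encodes the actin regulator leiomodin 1, had 14.46, 10.18 and 9.93 TPM, and it and *Cspg4* were highest in replicate 1 but lowest in replicate 3.

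The whole list of 6 measured smooth muscle and pericyte genes, out of 10 looked for, summed to 1277, 908 and 987 TPM in P6 replicates 1, 2 and 3. It summed to between 635 and 757 TPM at P56. The pericyte surface genes *Mcam* and *Cspg4* varied little at P6, between 204.01 and 226.38 TPM and between 22.04 and 24.07 TPM. Of the defining contractile marker *Myh11* and the pericyte markers *Pdgfrb* and *Rgs5*, none is listed. *Mgp* varied more than the sum did, and between the ages it went the other way. The part of smooth muscle RNA in the *Mgp* spread was not tested.

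**Figure D3:**
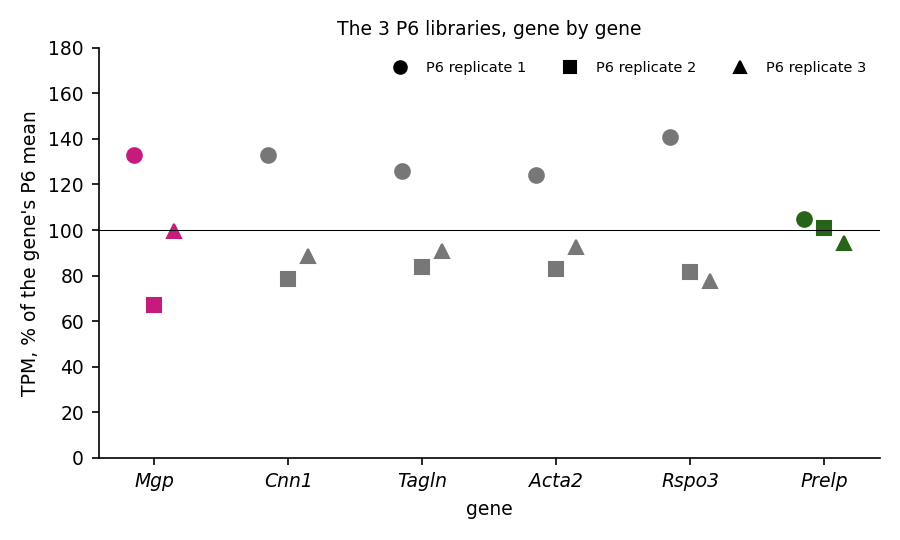
TPM in each P6 library as a percentage of the gene's mean over the 3 P6 libraries, with 1 symbol per replicate. Besides *Mgp* and *Prelp*, 4 genes with a wide spread at P6 are drawn, picked after their values were seen. *Phc3* and *Mlxip*, which ranked 3rd and 4th by spread at P6, are not drawn, and both were lowest in replicate 3. *Mgp* runs from 67.2% in replicate 2 to 133% in replicate 1, *Cnn1* from 78.3% to 133% in the same libraries, and *Prelp* from 94.4% to 105%.

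Short genes were looked at because *Mgp* is the shortest. The 20 next shortest genes by count over FPKM, with 1.17 to 3.85 times the length of *Mgp*, deviated in P6 replicate 2 by between −0.47 and 0.27 on the log2 TPM scale, with a median of −0.09. Their SD at P6 had a median of 0.12, and the widest, 0.40, was again *Cnn1*.

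The ratio of both members varied more within P6 than between the ages. The TPM of *Mgp* over that of *Prelp* was 0.601, 0.315 and 0.499 in P6 replicates 1, 2 and 3, and 0.457, 0.418 and 0.464 in P56 replicates 1, 2 and 3. The P56 values lay inside the P6 range. The log2 ratio of *Mgp* to *Prelp* differed between the ages by 0.03 (standard error 0.28), and this ratio does not depend on library depth. With a library left out it lay between −0.17 and 0.30.

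The listed genes most like each member over the 6 libraries were found by the root-mean-square difference of the log2 TPM profiles, each centred on its own mean, among the same 300 genes. They are descriptions of likeness in 6 libraries that fall into 2 ages, so any gene lower at P6 by about the same amount comes near. Nearest to *Prelp* were *Tgm2* (0.06), *Pdlim5* (0.06), *Rflnb* (0.06), *Vps13a* (0.07) and *Hyou1* (0.08), the distances being in log2 units. *Tgm2*, which encodes the protein-crosslinking enzyme transglutaminase 2, had 152.34, 136.39 and 135.31 TPM at P6 and 303.76, 289.62 and 278.04 TPM at P56. *Pdlim5*, which encodes a PDZ and LIM domain protein of the actin cytoskeleton, had 24.3 ± 2.12 TPM at P6 and 51.3 ± 5.25 TPM at P56 (SD, n = 3). *Rflnb*, a filamin regulator, had 66.6 ± 2.32 and 126.3 ± 4.89 TPM. *Hyou1*, a chaperone of the endoplasmic reticulum, had 29.5 ± 0.868 and 60.2 ± 7.43 TPM.

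Among the 5 nearest to *Mgp* were *Tgm2* (0.25), *Cst3* (0.25), *Irf5* (0.25) and *Fam124a* (0.26). These distances are well above those for *Prelp*, and none of these 4 had the wide P6 spread of *Mgp*. *Cst3*, which encodes the protease inhibitor cystatin C, had 810.87, 730.83 and 832.31 TPM at P6 and 1607.54, 1687.58 and 1611.95 TPM at P56. *Irf5*, an interferon regulatory transcription factor, had 35.5 ± 1.99 and 72.6 ± 3.51 TPM (SD, n = 3). *Tgm2* stood among the 5 nearest of both members. *Prelp* was 10th in likeness to *Mgp*, and *Mgp* was 67th in likeness to *Prelp*, at a distance of 0.28.

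**Figure D4:**
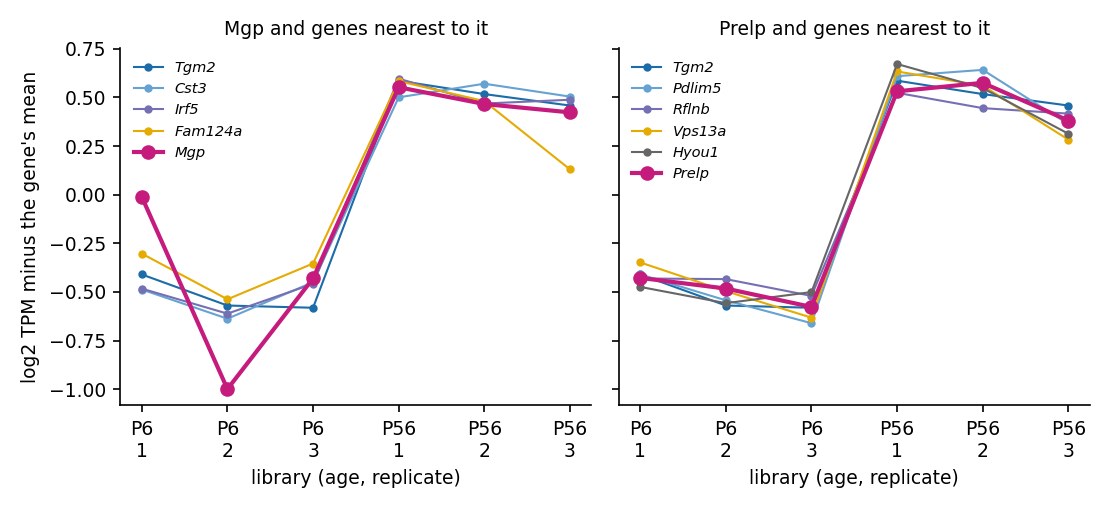
Log2 TPM minus the gene's own mean in each of the 6 libraries for *Mgp* (left) and *Prelp* (right), each in the thick line, with 4 of the 5 genes nearest to *Mgp* and the 5 nearest to *Prelp* in thin lines. The genes near *Prelp* lie within 0.08 log2 units of it on root-mean-square average, whereas *Mgp* leaves its neighbours in P6 replicates 1 and 2.

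Other matrix genes were read from 8 lists, which hold 189 genes besides the members, and 21 of these are in the table and averaged at least 10 counts. Of the 21, 13 were higher and 3 lower at P6, and 5 did not pass the test (edgeR, adjusted p under 0.05), where 30.3% of all tested genes were higher and 33.9% lower. Their median log2 fold change was 0.50, against −0.03 for all 310 tested genes. The table is itself a selection, and the lists were drawn up with earlier results of these data known.

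In the leucine-rich family, the only other listed gene was *Fmod*, which encodes fibromodulin, a regulator of collagen fibril assembly and, like *Prelp*, a class II member. It went the other way. *Fmod* had 53.8, 43.1 and 40.87 TPM at P6 and 19.82, 18.99 and 16.76 TPM at P56, with all P6 values above all P56 values. The fitted log2 fold change of *Fmod* was 1.43, with a standard error of 0.12 and an adjusted p of 1.31e-06 (edgeR, between 6.89e-26 and 2.92e-05 over the alternatives). *Prelp* was therefore 4.34 ± 0.433 times as abundant as *Fmod* at P6 and 21.2 ± 0.834 times at P56 (SD, n = 3, TPM). The other 16 genes of the list, *Dcn*, *Bgn* and *Lum* among them, are not among the 312 listed genes.

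No further vitamin K-dependent protein or vitamin K cycle enzyme of a list of 19 was in the table beside *Mgp*. Of 31 BMP and transforming growth factor beta genes, *Bmp2*, a ligand that matrix Gla protein is known to bind, was listed. *Bmp2* had 57.7, 60.05 and 60.1 TPM at P6 and 52.56, 48.48 and 39.24 TPM at P56. It was higher at P6 by 0.46 on the log2 scale (standard error 0.10, adjusted p = 0.00163 from edgeR, between 1.46e-06 and 0.0369 over the alternatives). The TPM of *Mgp* over that of *Bmp2* was 2.16, 1.05 and 1.55 in P6 replicates 1, 2 and 3 and 3.50, 3.57 and 4.28 in P56 replicates 1, 2 and 3.

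Among mineralization regulators, *Tnfrsf11b* and *Smpd3* were listed, of 18 looked for. *Tnfrsf11b* encodes osteoprotegerin, the decoy receptor that restrains osteoclasts. It rose at P6 to 7.85 ± 0.377 TPM from 0.623 ± 0.273 TPM (SD, n = 3; log2 fold change 3.76, adjusted p = 2.67e-07 from edgeR). *Smpd3*, a neutral sphingomyelinase needed for bone mineralization, fell at P6 to 5.09 ± 0.488 TPM from 112.2 ± 21.8 TPM (log2 fold change −4.33, adjusted p = 1.17e-09 from edgeR). The 2 regulators thus moved in opposite directions, and only *Smpd3* in that of *Mgp*.

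Of the basement membrane list, 5 of 23 genes were measured, and 2 were higher, 2 lower and 1, *Lama5*, not called. *Lama5*, the laminin alpha 5 chain, differed by 0.24 and passed the threshold as higher under 5 alternatives. *Hspg2*, which encodes perlecan, the partner that the basic end of the *Prelp* protein binds, had 517.65, 523.14 and 481.36 TPM at P6 and 485.59, 433.27 and 324.3 TPM at P56. In TPM the ages overlapped, since P56 replicate 1 exceeded P6 replicate 3. It was higher at P6 by 0.42 in the fit (standard error 0.11, adjusted p = 0.00473 from edgeR), but not past the threshold with limma on log2(TPM + 1), where 61.0% of 300 genes passed. The adjusted p of *Hspg2* over the alternatives (edgeR, DESeq2 and limma) ran from 2.13e-05 to 0.0942. *Prelp* stood at 0.389 ± 0.00956 of the TPM of *Hspg2* at P6 and at 0.967 ± 0.145 at P56 (SD, n = 3). *Nid2*, the linker protein nidogen 2, was higher at P6 (log2 fold change 1.07, adjusted p = 9.83e-07 from edgeR). *Lamb2*, the laminin beta 2 chain, and *Col4a5*, a type IV collagen chain, were lower at P6 like the members, with log2 fold changes of −0.82 and −1.81 (adjusted p = 3.92e-05 and 2.67e-07 from edgeR). *Lamb2* had 121.7 ± 5.93 TPM at P6 and 234.0 ± 42.7 TPM at P56, and *Prelp* over *Lamb2* was 1.62 ± 0.0372 and 1.71 ± 0.226.

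Of the list for collagen fibrils and their crosslinking, 6 of 32 genes were measured. None fell at P6, 5 rose and *Col6a3*, at 609.5 ± 17.6 and 639.0 ± 132 TPM, was not called. The largest rises were in *Col2a1* and *Col12a1*. *Col2a1* passed the filter on low counts only through its P6 libraries, and without it 12 matrix genes were higher. *Col2a1*, the type II collagen of cartilage and the 1 chondrocyte marker listed of 10, had 96, 62 and 88 counts at P6 and 2, 1 and 0 counts at P56. The ratio of *Col2a1* counts at the recovered depth was 63.5, and counting error alone gave a 95% exact interval of 21.5 to 310.3. *Col12a1*, a collagen on the fibril surface, had 74.1 ± 3.49 TPM at P6 and 7.54 ± 1.40 TPM at P56 (log2 fold change 3.41, adjusted p = 1.17e-09 from edgeR). Among the P6 libraries *Col2a1* had the order of *Mgp*, highest in replicate 1 and lowest in replicate 2, but on only 96, 62 and 88 counts. That order was seen in 11.0% of the 300 genes compared among the P6 libraries. Between the ages *Col2a1* and *Mgp* went opposite ways. The part of cartilage RNA in the level of *Mgp* was not tested.

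Of the other glycoproteins, 3 of the 5 measured rose at P6, led by *Wisp1* and *Thbs1*, none fell, and *Ctgf* and *Cyr61* were not called. *Thbs1*, which encodes thrombospondin 1, had 793.8 ± 20.7 TPM at P6 and 184.4 ± 29.4 TPM at P56 (log2 fold change 2.23, adjusted p = 1.10e-08 from edgeR). *Wisp1*, a matricellular protein of the CCN family, had 6.57 ± 0.811 and 0.727 ± 0.270 TPM (log2 fold change 3.28, adjusted p = 2.67e-07 from edgeR). *Ltbp1*, the 1 microfibril gene listed of 17, was not called, with an adjusted p of 0.752 from edgeR.

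**Figure D5:**
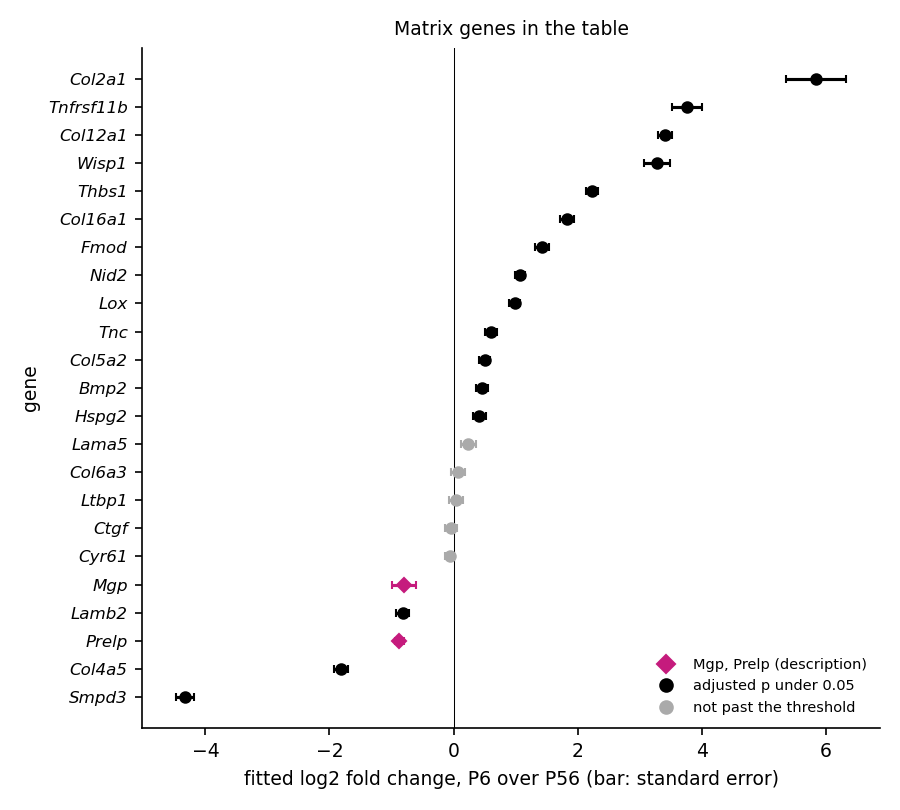
Fitted log2 fold change of P6 over P56 at the recovered depth, with its standard error, for *Mgp*, *Prelp* (diamonds) and the 21 other matrix genes in the table, black where the adjusted p from edgeR was under 0.05 and grey where it was not. *Mgp* (−0.79) and *Prelp* (−0.87) lie with *Lamb2*, *Col4a5* and *Smpd3* on the lower side. The fitted value of *Col2a1*, with 3 counts in all at P56, depends on the prior count.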

How the data were processed

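Poly(A)-selected RNA of 3 libraries at P6 and 3 at P56 was sequenced on a BGISEQ-500, and the submitters' notes name HISAT, Bowtie2, RSEM and DESeq2. No source used here gives their versions or the genome build. For 312 genes, the authors deposited estimated counts (not normalized, 23 genes with a fractional value), TPM (scaled by length and to a constant library total) and FPKM (scaled by length and depth). The log2 ratio, p-value and q-value columns that the authors deposited hold their own comparison and were not used.

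Libraries were grouped by title. Relative depth was taken from count over FPKM, the median being taken over 196 genes whose FPKM exceeded 5 throughout. Rounded counts were tested with edgeR 4.0.16 (glmQLFit, glmQLFTest, Benjamini-Hochberg, R 4.3.3) for 310 genes averaging 10 counts or more, with no covariates. Standard errors came from the fold change and the F statistic. On simulated data for this comparison (310 genes, 200 changed by a log2 of 1), 100% of changed genes were recovered, and 9 of 110 unchanged ones were called. Alternatives used DESeq2 1.42.0, limma 3.58.1 with pseudocounts of 1 and 0.1, other scalings, filters, left-out libraries and a replicate block. The FPKM alternative was chosen after seeing the data.

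Named were the members, the 5 nearest genes of each (1 of them is not reported here), every listed gene of the leucine-rich, Gla, mineralization and BMP lists, and, from each other matrix list, the 2 largest rises and falls past the threshold without overlap. Matrix genes not called and the genes compared among the P6 libraries were named after their values were seen. Replicate spread was taken over 300 genes averaging 1 TPM or more. The members and lists were chosen with earlier results of these data known. Lists of adipocyte, endothelial, macrophage, fibroblast, chondrocyte, smooth muscle and skeletal muscle markers were also looked up. Same-numbered libraries deviated together only weakly (correlations of 0.09, 0.14 and 0.25 over 310 genes) and were not treated as pairs. No pair of libraries agreed within sampling noise (mean chi-square per gene of at least 8.62).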

Additional observations from a re-analysis of the deposited data

How the results depend on the processing

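*Mgp* and *Prelp* were lower at P6 under each of the 16 alternatives. Equal library sizes gave −0.42 for *Mgp* and −0.51 for *Prelp*, and limma on log2(TPM + 1) and log2(TPM + 0.1) gave −0.99 and −0.99 for *Prelp*. With a library left out, the log2 difference ranged from −1.04 to −0.58 for *Mgp* and from −0.90 to −0.84 for *Prelp*, and the log2 ratio of *Mgp* to *Prelp* from −0.17 to 0.30. The widest values for *Mgp* came without P6 replicate 1 and without P6 replicate 2. Calls over all genes were 199 (94 higher, 105 lower). They were 148 higher and 34 lower with equal library sizes, and 50 (32 higher, 18 lower) when the log2 change also had to reach 1 in size, which left 10 matrix genes, 8 of them higher. With a library left out they ranged from 172 to 221, with 16 to 17 matrix genes. Among the 21 matrix genes, 313 of 332 values kept their direction and side of the threshold. *Lama5*, not called at the recovered depth, was called higher with equal library sizes, TMM, median-of-ratios size factors, the replicate block and without P56 replicate 1 (0.24 to 0.59). *Col6a3* reversed to −0.046 in both TPM fits and *Ltbp1* to −0.091 and −0.092, and without P56 replicate 3 both reversed (left-out ranges of −0.065 to 0.16 and −0.076 to 0.13). *Ctgf* reversed to 0.33 with equal library sizes, 0.0040 without P6 replicate 2 and 0.0022 without P56 replicate 2 (left-out range of −0.10 to 0.0040), and *Cyr61* to 0.30 with equal library sizes. None of these 4 was called at the recovered depth.

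With the replicate number as a block, which the libraries share in name only, 213 genes were called (104 higher, 109 lower), and the log2 difference was −0.83 for *Mgp* and −0.87 for *Prelp*. The deviations of *Mgp* rest on 266 to 599 reads per library, and depth limits low genes such as *Rspo3* and *Col2a1* most.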

Other observations

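*Myom1*, which encodes the sarcomere protein myomesin 1, had the same order among the P6 libraries as *Mgp*, with 8.82, 5.58 and 6.19 TPM in P6 replicates 1, 2 and 3. *Rspo3* was also highest in replicate 1 but lowest in replicate 3. Skeletal muscle genes were listed for 2 of 8 markers, *Acta1* and *Neb*, and both were lower at P6. *Acta1* had 150.75 to 173.16 TPM at P6 and 541.8 to 561.55 TPM at P56. *Neb* was a low gene, with 0.17 to 0.21 TPM at P6 and 0.51 to 0.78 TPM at P56.

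Not every gene with a wide spread at P6 followed *Mgp*. *Phc3*, a Polycomb group gene, had the third widest spread, with 19.09, 21.4 and 11.6 TPM in P6 replicates 1, 2 and 3. *Mlxip*, which encodes a glucose-responsive transcription factor, had the fourth widest, with 35.5, 32.34 and 21.06 TPM. Both were lowest in P6 replicate 3, where *Mgp* was at 99.6% of its P6 mean.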
